A study of Rattus norvegicus with 16 samples.

Results

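The interleukin-23 receptor gene Il23r and 8 genes that encode its partner chains, related cytokine receptors and their signalling proteins were followed across adrenal gland, heart and pancreas of rats. The 9 genes were taken by symbol from 45777 genes in each of the 3 deposited tables. Il23r was chosen because its adrenal level differed between vehicle and the higher dose, so its values in that comparison are given as a description, with no test. The other 8 were chosen by pathway: the co-receptor Il12rb1, the sister chain Il12rb2, the receptor genes Il6r, Il6st and Lifr, the kinase gene Jak2, the transcription factor gene Stat3 and the inhibitor gene Socs3.

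Male wildtype Sprague-Dawley rats were given benzalkonium chloride (BKC), a disinfectant of the quaternary ammonium class, or vehicle alone by instillation into the trachea. Doses of 50 or 100 µg per rat were given 10 times, every 3 days from 7 weeks of age, and the rats were killed 24 h after the last of them, on day 31. Adrenal gland (the 2 glands of an animal pooled) and left ventricular heart were taken at vehicle, 50 µg and 100 µg, and pancreas at vehicle and 100 µg, with 2 libraries per group. The column of the second 100 µg heart library equalled that of the second 100 µg adrenal library in 45777 of 45777 genes and was left out of the heart, which leaves 15 libraries and a lone 100 µg heart. The labels do not tie each library to its own animal, and libraries of different organs may come from 1 rat, so p-values measure the spread between these libraries. The values are read as FPKM, fragments normalised to transcript length and to library size. The read depth is unknown.

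The receptor for interleukin-23 is a pair of chains, IL-23R and IL-12Rβ1, which bind the cytokine made of the subunits encoded by Il23a and Il12b. IL-12Rβ1 also pairs with IL-12Rβ2 in the receptor for interleukin-12. JAK2 sits on IL-23R and the related kinase TYK2 on IL-12Rβ1, and together they phosphorylate STAT3. The receptor for interleukin-6 and those for its relatives share the signalling chain gp130, encoded by Il6st, which also signals through JAK kinases to STAT3, and SOCS3, a STAT3 target, inhibits JAK2 and gp130 signalling. Il23r is best known from T helper 17 cells and other lymphocytes that make interleukin-17.

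The promoters of Il23r and Il12rb1 are printed because these genes encode the 2 chains of the interleukin-23 receptor and both were highest in vehicle adrenals. Each is the 300 bases from 250 before to 50 after the annotated start, from RefSeq on build GRCr8. The Il23r window is chr4:98003710-98004009 and the Il12rb1 window is chr16:18666775-18667074, both on the minus strand and written 5′ to 3′ along the gene. Capitals mark matches on either strand to AGGTCA, the half-site bound by many nuclear receptors.
Il23r: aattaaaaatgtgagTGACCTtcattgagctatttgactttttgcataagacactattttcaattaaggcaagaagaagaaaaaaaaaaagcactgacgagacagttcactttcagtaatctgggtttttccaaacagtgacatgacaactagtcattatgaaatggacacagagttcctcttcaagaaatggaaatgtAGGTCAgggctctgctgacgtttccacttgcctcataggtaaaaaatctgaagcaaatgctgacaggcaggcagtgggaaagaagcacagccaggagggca
Il12rb1: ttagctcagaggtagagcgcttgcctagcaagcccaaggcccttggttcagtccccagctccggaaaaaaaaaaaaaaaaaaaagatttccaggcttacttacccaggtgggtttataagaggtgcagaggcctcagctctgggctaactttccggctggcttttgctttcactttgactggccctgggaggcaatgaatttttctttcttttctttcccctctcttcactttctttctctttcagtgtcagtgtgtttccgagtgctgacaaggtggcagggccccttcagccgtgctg

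AGGTCA matched 2 times in the Il23r promoter, starting 235 and 51 bases upstream of the start, and 0 times in that of Il12rb1. It was present on either strand in 5415 of 33469 RefSeq rat promoters of the same length, or 16.2%. TTCNNNGAA, a STAT binding motif that reads alike on both strands, was present in 2970 of them, or 8.87%, and in neither of the 2 windows shown. Of all 9 genes, matched in RefSeq in 9 of 9 cases, only Il12rb2 held it, in 1 of its 2 annotated promoters. These matches describe the letters only.

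Il23r was among the more abundant adrenal transcripts and was listed at 0 in the other 2 organs. In vehicle adrenals it was at 54.5 and 58.8 FPKM, above 97.0% and 97.5% of the genes in the table. At 50 µg it was at 26.8 and 24.2 FPKM, and at 100 µg at 11.6 and 8.77 FPKM. The 3 dose groups did not overlap, and even the lowest adrenal library ranked Il23r above 86.8% of genes. In all 5 heart and all 4 pancreas libraries Il23r was listed at 0, while each of 15 housekeeping genes was above 0 in all 15 libraries.

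The adrenal Il23r level was not matched by its co-receptor. Il12rb1 encodes the chain that pairs with IL-23R in the interleukin-23 receptor. It was at 2.06 and 1.89 FPKM in vehicle adrenals, 1.25 and 0.448 at 50 µg and 0.328 and 0.446 at 100 µg. Both vehicle libraries were above the other 4, while the 50 and 100 µg groups met, parted by 0.448 against 0.446 FPKM, and every library was far below its Il23r level. The ratio of Il23r to Il12rb1, in FPKM, which corrects for transcript length, was 26.5 and 31.1 with vehicle, 21.4 and 54.1 at 50 µg and 35.2 and 19.6 at 100 µg, with a median of 28.8 over the 6 libraries. These ratios overlapped between all 3 groups and had no order by dose (means 28.8 ± 3.26, 37.8 ± 23.1 and 27.4 ± 11.0, SD, n = 2).

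**Figure D1:**
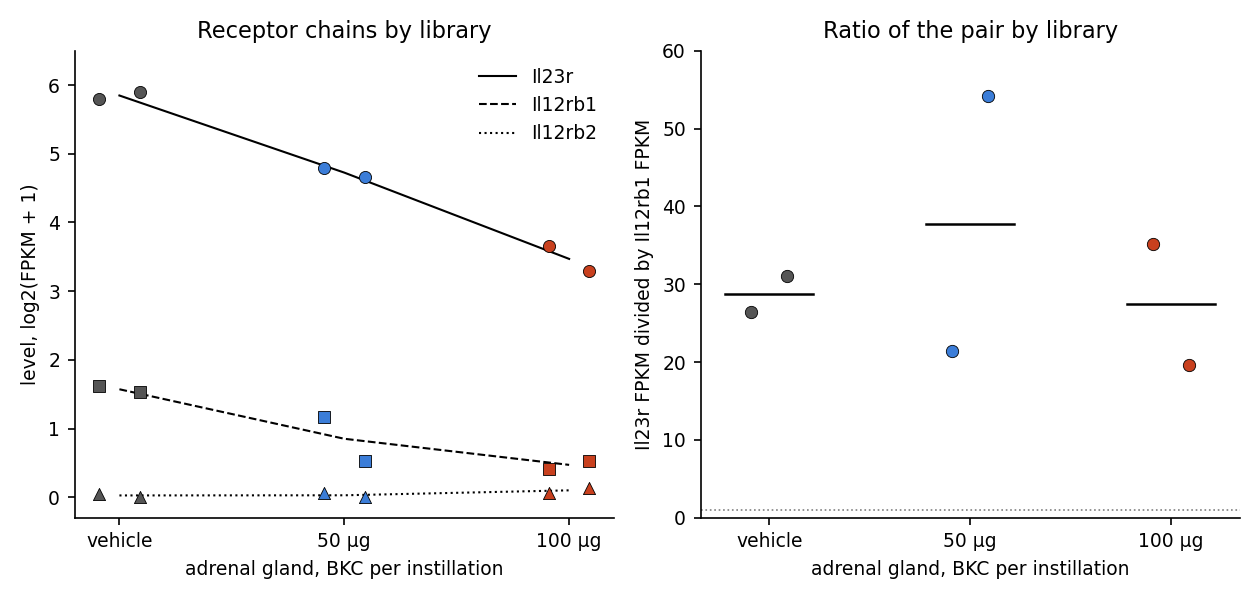
Left, level of Il23r (circles), Il12rb1 (squares) and Il12rb2 (triangles) in each adrenal library, as log2(FPKM + 1), by BKC dose, with lines through the group means. Right, Il23r FPKM divided by Il12rb1 FPKM in each library, with bars at the group means and a dotted line where both genes would be equal: the ratios lie between 19.6 and 54.1, far above that line.

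On the log2(FPKM + 1) scale the distance between the chains did shrink with dose, from 4.28 ± 0.13 to 3.87 ± 0.35 and 3.00 ± 0.34 (SD, n = 2). The pseudocount of 1 compresses values near 0, where Il12rb1 lies, so this order belongs to the scale. The co-receptor passed the low-value filter, which was 1 FPKM on average over the adrenal libraries, only through the vehicle group. In heart it did not exceed 0.144 FPKM and in pancreas 0.0618 FPKM.

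Il12rb2, which lies next to Il23r on chromosome 4 and encodes the chain used for interleukin-12 in its place, was nearly silent in adrenals. It was at 0.0368 and 0 FPKM with vehicle, 0.0399 and 0 at 50 µg and 0.0485 and 0.0960 at 100 µg. In heart it was at 0.260 to 0.356 FPKM, and in pancreas at most 0.0256. The 3 tables were given separately, so levels set across organs are side by side only. On the other side of Il23r, the neighbours LOC120102522 and LOC500161, both annotated as V segments, did not pass 0.800 FPKM in adrenals. Beyond Il12rb2 came the non-coding LOC120102291, at most 0.167 FPKM in adrenals, and the RNA-binding protein gene Serbp1 at 109 to 138 FPKM.

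**Figure D2:**
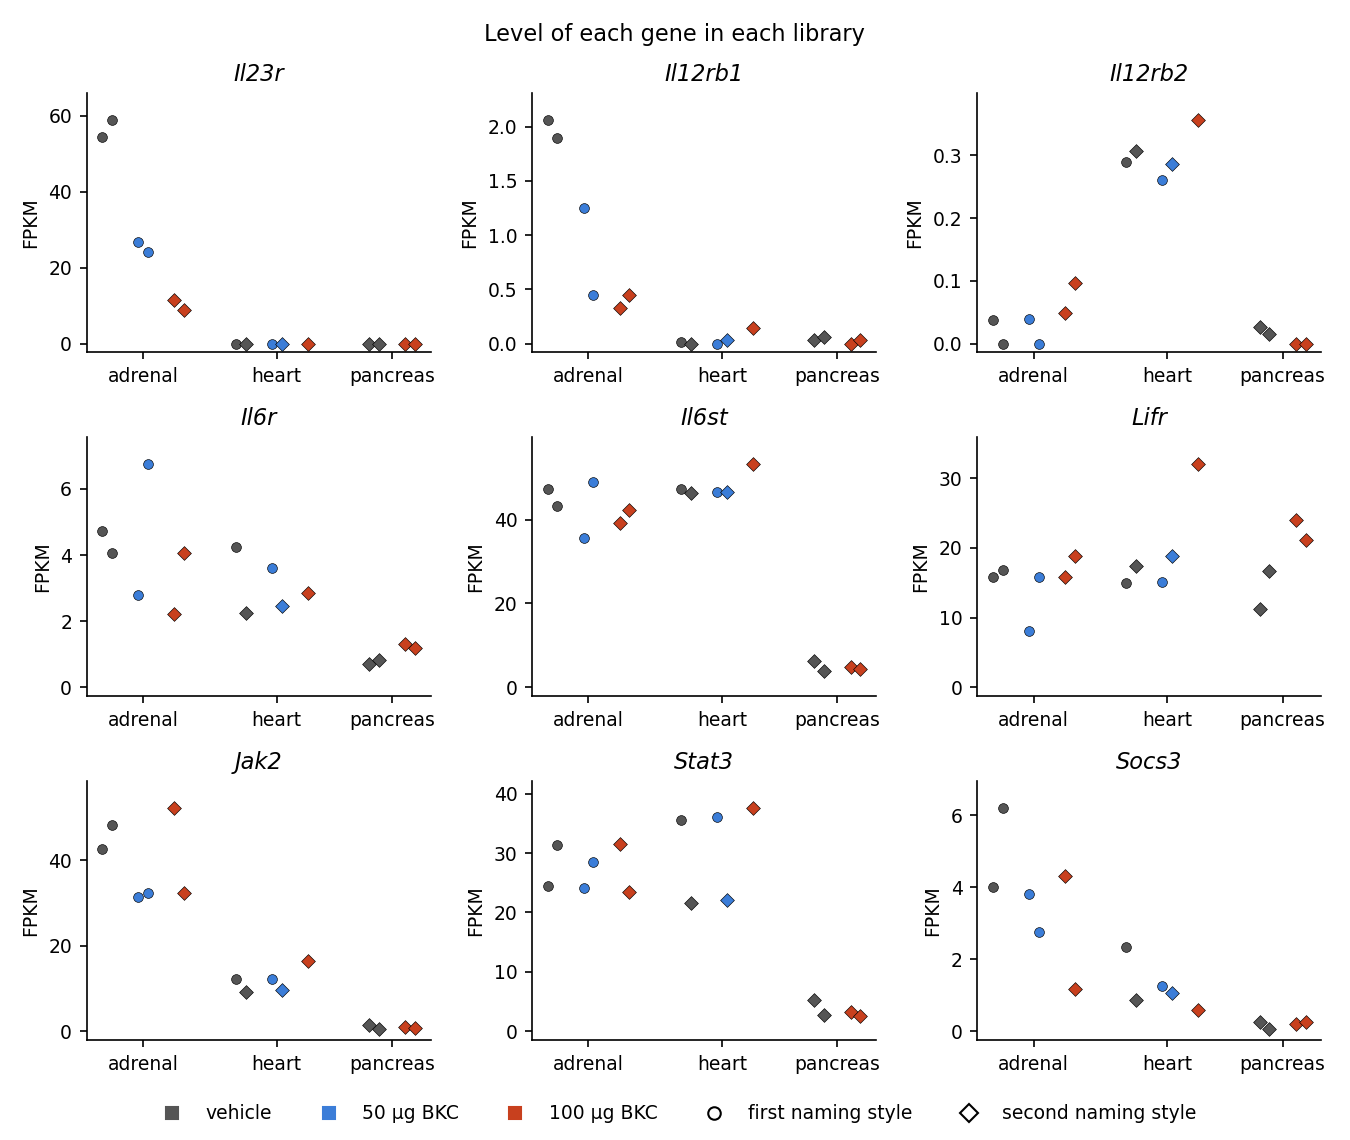
FPKM of each of the 9 genes in each of the 15 libraries, by organ and dose; circles and diamonds are the first and second naming style of the libraries. Each gene has its own axis from 0. Il23r is above 0 in the 6 adrenal libraries and at 0 in the other 9.

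Against vehicle, 100 µg BKC gave a mean adrenal Il23r of 10.2 ± 1.98 FPKM against 56.7 ± 3.04 (SD, n = 2), 5.57-fold lower. The intermediate dose, which was not used to choose the gene, gave 25.5 ± 1.79 FPKM, 2.22-fold below vehicle and 2.51-fold above 100 µg. Each of those contrasts still shares 2 libraries with the one that chose Il23r, so neither p-value is read as a test of it. Between 50 µg and vehicle Il23r differed by -1.12 (SE 0.22) on the log2(FPKM + 1) scale, with limma adjusted p = 0.0823 over 12578 genes. By limma that contrast called 0.0318% of genes and 0 of the 8 tested here, of which Il23r and Il12rb1 had an unadjusted p under 0.05, as 11.3% of all genes did. Il23r passed only when a 100 µg library, or both, were left out of the fit (adjusted p from 0.0133 to 0.0169); under the other alternatives it did not pass, with adjusted p from 0.106 with a pseudocount of 0.1 to 0.543 with no filter. Between 100 and 50 µg Il23r differed by -1.26 (SE 0.22, limma adjusted p = 0.0173). The 100 µg libraries are those whose low level chose the gene, so no fall is called from it. In that contrast 2.96% of genes were called, 2.34% downward, and of the 8 tested here only Il23r was past the threshold. After median-ratio scaling it did not pass (log2 change -1.06, limma adjusted p = 0.0924).

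Il12rb1 was at 0.387 ± 0.0835 FPKM at 100 µg and 1.97 ± 0.118 with vehicle (log2 change -1.10, SE 0.31, n = 2). Its limma adjusted p was 0.0423, but it was tested only because of its vehicle level, so no fall is called from it. With the filter at 0.1 FPKM, which it passes in every group, the adjusted p was 0.0667. In mean FPKM it was 5.09-fold lower, a larger ratio than the log2(FPKM + 1) scale gives for so low a gene. Without the first 100 µg library the adjusted p was 0.154, and without either vehicle library the gene was under the filter and not tested. After median-ratio scaling its log2 change was -0.95 (adjusted p = 0.111). At 50 µg it was at 0.848 ± 0.566 FPKM, with adjusted p of 0.403 against vehicle and 0.542 against 100 µg.

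Between 100 µg and vehicle in adrenal, 9.78% of all genes tested were called in either direction and 7.98% downward. Il23r, which was chosen on it, and Il12rb1, which the filter kept through its vehicle level, were the 2 genes of 8 past the threshold, and nothing is read from that count. Of the other 6, limma called 0, and 0 had an unadjusted p under 0.05, which 30% of all genes had. Groups ordered by dose without overlap and downward were found in 989 of 12578 genes, or 7.86%, and upward in 2.09%. Of the 8 tested here, Il23r and, by the narrow margin given above, Il12rb1 were in that downward order. The choice of Il23r and the filter on Il12rb1 both favour that order, so nothing is read from it either. Over all genes tested the median log2 change was -0.28 at 100 µg and -0.10 at 50 µg against vehicle, and -0.16 between the doses, so falls stand against a general shift. The summed FPKM of the 100 µg adrenals, 391123 to 399629, was below that of vehicle, 689355 to 692837. That of the 50 µg adrenals was above vehicle, at 1004890 in the first library and 710106 in the second. After median-ratio scaling Il23r still differed by -2.07 at 100 µg against vehicle. All vehicle and 50 µg adrenal libraries carry names of one style (V and B) and both 100 µg libraries names of another (B100), so the 100 µg dose and the naming style cannot be told apart in adrenal; vehicle and 50 µg share a style.

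**Figure D3:**
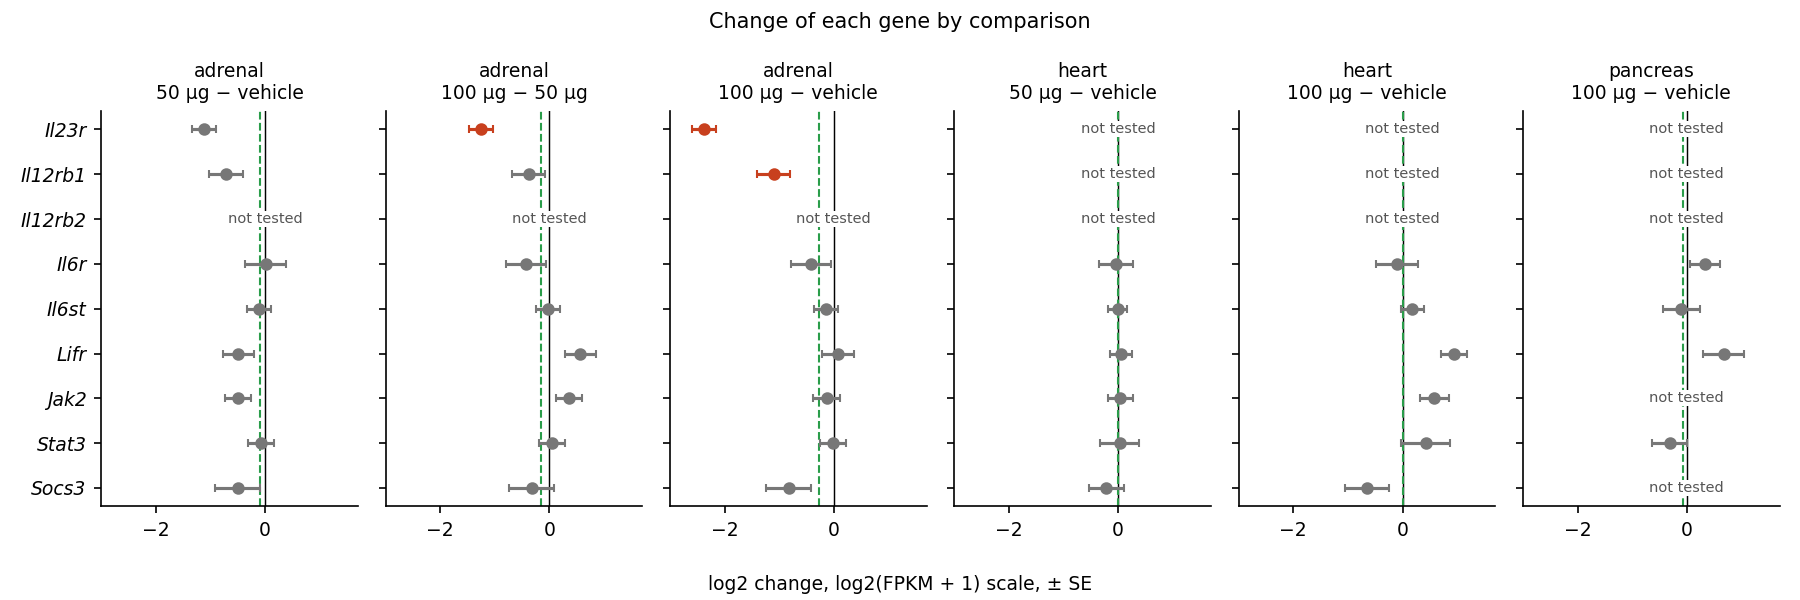
Log2 change of each gene on the log2(FPKM + 1) scale, with bars of 1 SE from limma, in each of 6 comparisons. Red marks an adjusted p under 0.05 and the green dashed line the median of all genes tested. For Il23r red is a description, since the gene was chosen on its 100 µg and vehicle libraries. For Il12rb1 at 100 µg against vehicle red is not read as a call. Il23r and Il12rb1 lie left of that line in the 3 adrenal comparisons, and genes under the low-value filter are marked as not tested.

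The receptor chains of the interleukin-6 branch were abundant in adrenal, and no change of theirs was called. Il6st, encoding the shared chain gp130, was at 47.3 and 43.3 FPKM with vehicle, 35.5 and 49.0 at 50 µg and 39.2 and 42.3 at 100 µg. Il6r, encoding the chain specific to interleukin-6, was at 4.74 and 4.06, then 2.79 and 6.75, then 2.22 and 4.06 FPKM. Lifr, encoding the partner of gp130 for leukemia inhibitory factor, was at 15.8 and 16.8, then 8.05 and 15.8, then 15.9 and 18.8 FPKM. By limma 0 of these 3 genes were called in any adrenal comparison, and 0 had an unadjusted p under 0.05, which 30% of all genes had at 100 µg against vehicle, 11.3% at 50 µg and 19% between the doses. The first 50 µg library was the lowest of the 6 in Il6st and Lifr.

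The signalling genes downstream of both receptor branches likewise showed no called change in adrenal. Jak2 was at 42.6 and 48.2 FPKM with vehicle, 31.5 and 32.3 at 50 µg and 52.3 and 32.5 at 100 µg, so the 50 µg pair was lowest and the 100 µg pair spanned nearly the whole range (50 µg against vehicle, log2 change -0.50, SE 0.24, limma adjusted p = 0.474). Stat3 was at 24.4 and 31.4, then 24.2 and 28.5, then 31.6 and 23.4 FPKM, with all groups overlapping. The log2 changes of Il6st, Jak2 and Stat3 at 100 µg against vehicle were -0.15, -0.13 and -0.02, and turned to 0.17, 0.19 and 0.29 after median-ratio scaling. Socs3, the feedback inhibitor, was at 4.01 and 6.20 FPKM with vehicle, 3.80 and 2.77 at 50 µg and 4.31 and 1.16 at 100 µg. Its lowest value came from a 100 µg library, but that group overlapped both others (100 µg against vehicle, log2 change -0.83, SE 0.41, adjusted p = 0.207), and without the first 100 µg library it passed (log2 change -1.47, adjusted p = 0.0338).

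Ordered by adrenal vehicle level, Il23r (56.7 ± 3.04 FPKM), Jak2 (45.4 ± 3.97) and Il6st (45.3 ± 2.80) stood highest, with the last pair within their spread. Stat3 (27.9 ± 4.92) and Lifr (16.3 ± 0.735) followed, then Socs3 (5.11 ± 1.55) and Il6r (4.40 ± 0.483), which overlapped, then Il12rb1 and Il12rb2. At 100 µg Il23r came after Jak2, Il6st, Stat3 and Lifr.

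The cytokine genes of both families were mostly low in adrenal. For interleukin-23 itself, Il23a was at 0.159 to 0.541 FPKM and Il12b was at 0 in all 6 libraries, as was Il6. Of 15 ligand genes, 4 were at 0 in all adrenals and 4 passed the filter: Clcf1, Il12a, Lep and Cntf. Of these, 0 were called by limma at either dose against vehicle, where 9.78% of all genes were at 100 µg and 0.0318% at 50 µg. At each dose 1 of 4 had an unadjusted p under 0.05, against 30% of all genes at 100 µg and 11.3% at 50 µg. Between the doses 1 of the 4 was called, where 2.96% of all genes were. Clcf1, which encodes a cytokine acting through gp130 and LIFR, fell between 50 and 100 µg, from 20.2 ± 0.916 to 9.17 ± 2.99 FPKM (log2 change -1.09, SE 0.26, limma adjusted p = 0.0450); its vehicle level was 11.5 ± 1.48, and the call ended when any 1 library of either group was left out except the second 100 µg library. The Clcf1 call was also lost after median-ratio scaling. Il12a, whose product joins that of Il12b in interleukin-12, was at 2.38 ± 1.44 FPKM with vehicle and 0.558 ± 0.182 at 100 µg (limma adjusted p = 0.0669).

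Among 6 other receptor genes of the families, 2 passed the filter and 1 was called. Over all genes, 9.78% were called at 100 µg against vehicle and 2.96% between the doses. Il11ra1, encoding the interleukin-11 receptor chain that uses gp130, fell at 100 µg from 15.4 ± 3.02 to 5.99 ± 0.485 FPKM (log2 change -1.22, SE 0.25, limma adjusted p = 0.0147), and from 16.0 ± 2.22 at 50 µg (adjusted p = 0.0205). The call against vehicle ended without the second vehicle library (adjusted p = 0.0790). The call between doses ended without either 50 µg library or the first 100 µg library (adjusted p from 0.0514 to 0.0846). Of 8 other JAK and STAT genes tested, 0 were called by limma at 100 µg against vehicle and 2 had an unadjusted p under 0.05, near the 30% of all genes; their median log2 change against vehicle was -0.28, as over all genes. The kinase gene Tyk2 was at 5.24 ± 0.517 with vehicle and 3.35 ± 1.80 at 100 µg. Of 14 inhibitor genes tested, 0 were called by limma in that contrast, where 9.78% of all genes were, and 1 had an unadjusted p under 0.05, against 30% of all genes (median -0.30). Of 16 STAT3 target genes, Irf1, an interferon-induced transcription factor gene, fell at 100 µg from 43.9 ± 6.20 to 18.3 ± 2.62 FPKM (log2 change -1.22, adjusted p = 0.0243), and Lcn2, the lipocalin gene, fell from 50 µg, where it was at 7.31 ± 3.08 FPKM, to 100 µg (log2 change -1.37, adjusted p = 0.0447); the other 15 of each comparison were not called. At 50 µg against vehicle limma called 0 genes of these lists, with 3 of 16 STAT3 targets and 1 of 14 inhibitor genes at an unadjusted p under 0.05, against 11.3% of all genes. After median-ratio scaling the Il11ra1, Irf1 and Lcn2 calls were lost. The Irf1 call ended without the first vehicle or the first 100 µg library (adjusted p of 0.119 and 0.108), the Lcn2 call without the second 50 µg or the first 100 µg library (0.326 and 0.0924).

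Markers of the lymphocytes best known for Il23r were low or at 0 in the adrenals. The T cell receptor complex gene Cd3d was at 0 in all 6 libraries, and Cd3e, Cd3g and Cd247 did not pass 0.197, 0.196 and 0.271 FPKM. Of 12 type 17 lymphocyte genes, 4 were at 0 in all adrenals: the cytokine genes Il17a, Il17f and Il22 and the surface receptor gene Klrb1. Others were higher, among them Zbtb16, a transcription factor gene (2.55 to 5.98 FPKM), Ptprc, the pan-leukocyte CD45 gene (2.30 to 4.88) and Il1r1 (0.359 to 2.03). The sum of the 12 was 18.2 to 18.3 FPKM with vehicle, 12.9 to 17.05 at 50 µg and 14.1 to 19.5 at 100 µg, and at 100 µg limma called 0 of the 4 tested, with Zbtb16 at an unadjusted p under 0.05, as 30% of all genes. The sum of 17 T and NK cell markers was 7.84 to 8.86, 5.21 to 8.56 and 6.89 to 7.13 FPKM. All these sums in vehicle adrenals lie below the level of Il23r alone.

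Myeloid markers, summed over 12 genes, were at 345 to 391 FPKM with vehicle, 254 to 437 at 50 µg and 230 to 272 at 100 µg. Cd14, a lipopolysaccharide co-receptor gene, fell at 100 µg (log2 change -1.10, limma adjusted p = 0.0219). That call ended without either vehicle library or the first 100 µg library, and after median-ratio scaling. Cd14 was the 1 called gene of 11 tested, near the 9.78% of all genes called in that contrast. Of the 11, 4 had an unadjusted p under 0.05, against 30% of all genes. The adrenal label held: 10 cortex markers reached 8811 FPKM, with sums of 19730 to 24260 in vehicle, 23447 to 27586 at 50 µg and 23382 to 25857 at 100 µg. Of these the lipoprotein receptor gene Scarb1 rose at 100 µg (log2 change 1.84, limma adjusted p = 0.0328). The Scarb1 call ended without the first library of either group, and after median-ratio scaling. Scarb1 was the 1 called gene of 10 tested, again near the 9.78% of all genes. Of the 10, 4 had an unadjusted p under 0.05, against 30% of all genes. The 7 medulla markers summed to 408 to 416, 471 to 677 and 348 to 548 FPKM. The part of these cell types in the Il23r levels was not tested, and in bulk tissue fewer cells of a type and less RNA per cell cannot be told apart.

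Across the 6 adrenal libraries, the genes with values most like those of Il23r were ranked by Pearson's r on log2(FPKM + 1), among 7841 genes averaging 5 FPKM or more. The first 8 were Gpn1 (0.995), Chchd6 and Chchd2 (both 0.991), Dnajc18 (0.989), Calm2 (0.987), Carmil1 (0.986), Dera (0.985) and Nubpl (0.982). They encode a GTPase (Gpn1), mitochondrial proteins (Chchd6, Chchd2, Nubpl), a DnaJ co-chaperone (Dnajc18), calmodulin (Calm2), an actin capping regulator (Carmil1) and a deoxyribose-phosphate aldolase (Dera). Their changes at 100 µg, from -0.38 for Dera to -1.19 for Nubpl, were smaller than the -2.38 of Il23r. Calm2 is 1 of several genes for the same protein, between which reads may be divided. Of the other genes studied, Il12rb1 had r = 0.904, Socs3 0.711 and Il12rb2 -0.72, and the rest lay between -0.15 and 0.34. The points share 3 groups and 1 organ, so these values mainly describe the differences between groups.

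**Figure D4:**
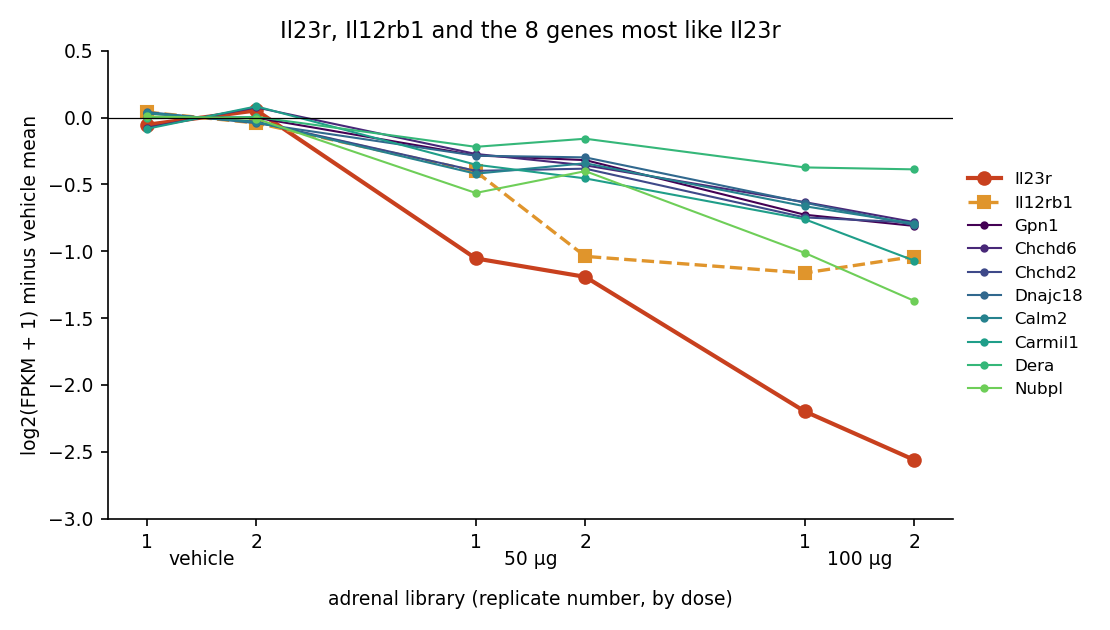
Log2(FPKM + 1) minus the vehicle mean for Il23r (red), Il12rb1 (orange, dashed) and the 8 genes most like Il23r, in each of the 6 adrenal libraries; lines only link the points of a gene. Il23r lies lowest in the 50 and 100 µg libraries, and the other 8 follow the same order of groups with smaller changes.

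In heart, where the interleukin-23 chain was at 0, the gp130 chain gene ranked above 97.4% to 98.1% of genes. Il6st was at 47.4 and 46.4 FPKM with vehicle, 46.5 and 46.6 at 50 µg and 53.3 in the lone 100 µg library. Lifr was at 14.995 and 17.5, then 15.2 and 18.8, then 32.0 FPKM, so that library stood above the other 4 (log2 change 0.94, SE 0.25, limma adjusted p = 0.179). It was also highest in Jak2, at 16.4 FPKM against 9.21 to 12.2 in the other 4. Socs3 was lowest in it, at 0.592 FPKM against 0.873 to 2.35, and Il6r, at 2.84, lay inside the 2.24 to 4.24 of the others. In that library the sum of myeloid markers was also highest (247 against 164 to 213 FPKM). So was that of T and NK cell markers (25.7 against 12.3 to 18.4), as was Il12rb1. The sum of 7 endothelial markers was highest there too (270 against 164 to 191 FPKM). The sum of 6 heart muscle markers was lowest there (14240 against 19032 to 27435 FPKM). All 6 were below their vehicle means, but unequally. Myh7 was at 347 FPKM against 1412 (log2 change -2.02), Myh6 at 3109 against 3920 (-0.31). The part of these cell types in the levels of the genes studied was not tested. Whether this library came from the same part of the heart as the others was not tested either. The lone library has no replicate check and is assumed to vary like the others.

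Stat3 in heart was at 35.6 and 21.6 FPKM with vehicle, 36.02 and 22.2 at 50 µg and 37.6 at 100 µg. It split by library name rather than dose at vehicle and 50 µg: both first-style libraries stood above both second-style ones, and within a style the 2 doses lay far closer together than the 2 styles. Il6r, Jak2 and Socs3 also stood higher in both first-style libraries (Il6r at 4.24 and 3.60 against 2.24 and 2.47 FPKM). Lifr stood higher in both second-style ones (17.5 and 18.8 against 14.995 and 15.2 FPKM), and Il6st did not split. The 100 µg library carries a second-style name, while the vehicle libraries it is compared with hold both styles. Of the 9 genes 6 passed the filter in heart, and 0 were called at 50 µg by limma, where 0 of 12099 genes were called; 0 of the 6 and 45 of all genes, 0.372%, had an unadjusted p under 0.05. At 100 µg 0 of the 6 were called by limma, with 0.81% of all genes called; Lifr alone had an unadjusted p under 0.05, 1 of 6 where 17.3% of all genes had one.

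In pancreas Lifr and Il6st ranked high among the genes of their library: Lifr was above 98.6% to 99.4% of genes and Il6st above 97.3% to 97.6%. Lifr was at 11.3 and 16.7 FPKM with vehicle and 24.0 and 21.1 at 100 µg; the groups did not overlap, but the change did not pass (log2 change 0.67, SE 0.37, limma adjusted p = 1.00). Il6r also had both 100 µg libraries above both vehicle ones, at 1.30 and 1.18 against 0.711 and 0.835 FPKM (log2 change 0.34, SE 0.27). With a mean of 1.007 FPKM over the pancreas libraries, it passed the filter only through its 100 µg level. That favours an upward order, so nothing is read from it. Upward change without overlap was found in 5.06% of 5610 genes tested. Il6st was at 6.27 and 3.899, then 4.81 and 4.34 FPKM, and Stat3 at 5.27 and 2.70, then 3.18 and 2.58, with the first vehicle library highest in both. Jak2 (0.534 to 1.39 FPKM) and Socs3 (0.0540 to 0.265) were below the filter. By limma 0 of the 4 genes tested were called, and 0 had an unadjusted p under 0.05, with 0.392% of all genes called and 2.21% at an unadjusted p under 0.05.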

How the data were processed

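Gene values were deposited as 1 table per organ, 45777 symbols each, with no unit stated; the deposited values were read as FPKM because they were not whole and, unlike TPM, did not sum to 1 total in each library. HISAT2 2.1.0, StringTie 2.1.3b and edgeR 3.40.2 are named, without roles, per the submitters' processing notes; the genome build is not given in the sources used here. The mRNA kit kept strand, per the labels' protocols. Depth is unknown, so no counting interval or floor is given. Library names matched all 16 columns to their samples.

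For each organ a separate model of group means on log2(FPKM + 1) was fitted in limma 3.58.1 (R 4.3.3), with trend and robust options, over genes averaging 1 FPKM or more. A gene was called at a two-sided Benjamini-Hochberg adjusted p under 0.05 over all genes tested, and only such genes are said to have risen or fallen. Of the 9 genes, 8 were tested in adrenal, 6 in heart and 4 in pancreas. Fold changes on this scale understate changes of low genes. Groups of 2 against 2 cannot reach an exact permutation p under 0.33, so the pair ratio was not tested. The fit was tested on simulated data. The members and lists were chosen with earlier results of these data known. Named from each list were its called genes, up to 4, and for the ligand and type 17 lists the 4 most abundant, apart from some results not reported here; Tyk2, Il23a, Il12b, Il6 and the CD3 genes were named for their roles. Alternatives were a pseudocount of 0.1, other low-value filters, median-ratio scaling, a replicate block, only the 2 groups compared, and each library left out. Sequences and gene order are from RefSeq GRCr8 tables; figures were drawn with matplotlib 3.10.9 in Python 3.11.15.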

Additional observations from a re-analysis of the deposited data

How the results depend on the processing

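The log2 changes of the genes studied were recomputed in 439 alternatives over all comparisons: 388 kept their direction and side of the threshold, 11 were no longer called, 6 became called and 34 changed sign. With no filter, meaning all genes above 0 in at least 1 library, 0 genes were called in adrenal at 100 µg against vehicle by limma, and 4551 had an unadjusted p under 0.05. The adrenal calls of Il11ra1, Irf1, Cd14, Scarb1, Clcf1 and Lcn2 kept their direction but were lost after median-ratio scaling (adjusted p from 0.0680 to 0.0950).

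Adrenal 100 µg against vehicle called 1230 genes: 378 where the filter was 0.1 FPKM, 0 with no filter, 311 after median-ratio scaling (202 up and 109 down, against 226 and 1004), 526 with the replicate block, and 261 to 2304 with a library left out. Of the genes studied, 2 passed there, Il23r, which that contrast chose, and Il12rb1, which the filter kept through its vehicle level, so their number is no evidence of stability; it became 1 with a pseudocount of 0.1, the 0.1 FPKM filter, median-ratio scaling or the replicate block, 0 with no filter, and 1 to 2 with a library left out. Adrenal 50 µg against vehicle called 4: 0 with a pseudocount of 0.1, no filter, median-ratio scaling or the block, 1 with the 0.1 FPKM filter, 205 with only the 2 groups compared, and 1 to 183 with a library left out; of the genes studied, 0 became 1 (Il23r, adjusted p = 0.0133) with only the 2 groups, and 0 to 1 with a library left out. Adrenal 100 against 50 µg called 372: 36 with the 0.1 FPKM filter, 0 with no filter, 37 after median-ratio scaling (18 up and 19 down, against 78 and 294), 72 with the block, and 81 to 870 with a library left out; the 1 gene studied that was called, Il23r, was lost in the first 4 of these (0 called).

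Heart 50 µg called 0, and 0 to 2 with a library left out. Heart 100 µg called 98: 565 with no filter, 217 after median-ratio scaling, 5327 with the block, 280 with only the 2 groups, and 266 to 347 with a library left out; with the block 2 of the genes studied were called, Lifr (log2 change 1.07) and Jak2 (0.42). Pancreas called 22: 57 with the 0.1 FPKM filter, 0 with no filter, 1 after median-ratio scaling, 44 with the block, and 0 to 115 with a library left out. The median difference of Il23r and Il12rb1 over the adrenal libraries, 3.87 on the log2 scale, was 4.71 with a pseudocount of 0.1 and 3.63 to 4.12 with a library left out. In heart the block set the lone 100 µg library, which has a second-style name, with the first-style vehicle and 50 µg libraries. That fit therefore adjusts it for the other naming style. Neither its number of calls nor those of Lifr and Jak2 are read as a result. With a library left out, the log2 change at 100 µg in heart was 0.84 to 1.05 for Lifr and 0.40 to 0.77 for Jak2.

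Changes that turned sign were all uncalled. At 50 µg in adrenal Il6r was -0.011 with a pseudocount of 0.1. After median-ratio scaling Il6st, Jak2 and Stat3 were 0.17, 0.19 and 0.29 at 100 µg against vehicle, Il6st and Stat3 0.0015 and 0.043 at 50 µg, and Il6st 0.17 between the doses. With a library left out, at 100 µg in adrenal Stat3 ranged from -0.23 to 0.19, Lifr from -0.037 to 0.19 and Jak2 from -0.47 to 0.20; at 50 µg Il6r from -0.51 to 0.52, Stat3 from -0.25 to 0.10 and Il6st from -0.34 to 0.11; and between the doses Stat3 from -0.16 to 0.26, Il6r from -0.94 to 0.089, Il6st from -0.26 to 0.19 and Socs3 from -0.98 to 0.32. At 50 µg in heart Il6r ranged from -0.39 to 0.30, Il6st from -0.025 to 0.0036, Lifr from -0.087 to 0.21, Jak2 from -0.14 to 0.22 and Stat3 from -0.32 to 0.37; at 100 µg Il6r from -0.45 to 0.25; and in pancreas Il6st from -0.38 to 0.19 and Stat3 from -0.70 to 0.065. The cause of these moves was not tested.

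The replicate numbers share only a number: same-numbered libraries deviated together with r of 0.14, -0.10 and -0.15 in the adrenal pairs, 0.74 in heart, where the number coincides with the naming style of the vehicle and 50 µg libraries, and 0.42 in pancreas. With the block, the limma adjusted p of Il23r between the doses was 0.0589, and that of Il12rb1 at 100 µg against vehicle was 0.0679. Unknown depth limits what a listed 0 or a value near it can show.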
